A study of Mus musculus with 56 samples.

Results

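Mouse genes named Zfp plus a number encode zinc finger proteins, and 292 of them were followed through reprogramming of fibroblasts to induced pluripotent stem cells with and without a Ctcf shRNA. The members are the Ensembl genes of the sorted-cell table with such a name whose mean score was at least 100 over the 44 libraries, or in the day 12 control cells, or in the day 0 control cells. Of 13451 genes, 328 carry such a name. Zfp42 and Zfp296, known pluripotency genes, were set aside, and 34 genes fell below the limit. The mean over all libraries admitted 271 members, the day 12 control cells alone 11 more, and the day 0 control cells alone 10 more. Just inside the limit were Zfp39 at 103, Zfp941 at 106.3 and Zfp658 at 109, and just outside were Zfp78 at 97.8, Zfp566 at 97.5 and Zfp580 at 97.0. The deposited score is a value per gene that the authors normalized and rounded. Nothing in the sources used here says that it is divided by gene length, so scores are compared between samples and not between genes.

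The cells were OG2-MEFs, mouse embryonic fibroblasts whose Oct4-GFP reporter lights up when the pluripotency gene Oct4 becomes active. They were made to express OSKM (Oct4, Sox2, Klf4 and Myc). The labels' protocols describe both retroviral OSKM and a doxycycline-inducible lentiviral OSKM on 1 transcript with rtTA virus, and do not tie samples to either; cells then grew in embryonic stem cell medium with vitamin C. Retrovirus also delivered a control shRNA (shLuci) or an shRNA against Ctcf (shCTCF). The day 0 cells carry no sort label. Sorting gave Thy1+, SSEA1+ and SSEA1-Thy1- (double-negative) fractions on days 3, 6 and 9 and GFP+ cells on day 12. Thy1 marks fibroblasts and SSEA1 marks cells moving toward pluripotency. This gives 11 populations with each shRNA and 22 groups of 2 libraries. Day 10 cells, also with no sort label, form 3 further groups of 2 libraries: overexpression control (oecontrol), CTCF overexpression (oeCTCF), and the same with a knockdown of Smarca5, a chromatin remodeller (oeCTCF&shSmarca5). Single libraries of MEFs and iPSCs complete the set, and day 10 control and Ctcf shRNA cells enter through the authors' comparison table. The labels do not say whether the 2 libraries of a group came from separate cultures, so the p-values measure only the spread between these samples, which may be technical.

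Most mammalian zinc finger proteins of this naming series bind DNA through tandem C2H2 fingers, each a short fold around a zinc ion. Many also carry a KRAB domain, which recruits TRIM28 (KAP1) and with it the histone methyltransferase SETDB1, so that bound DNA is packed into H3K9-methylated heterochromatin. The best known targets are endogenous retroviruses and imprinted loci, which pluripotent cells silence in this way. KRAB genes lie in clusters of recent duplicates that differ between mammals. CTCF, the gene product targeted here, is itself a C2H2 zinc finger protein that anchors chromatin loops.

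In translations of the GENCODE transcripts, 162 of the 292 members contained a KRAB sequence pattern and 129 did not, and Zfp469 had no coding transcript in the annotation used. The KRAB members had a median of 12 C2H2 fingers and the others 7, with a maximum of 36 fingers. The finger pattern was found in all but 10 of the members with a translation. Members lay on 20 chromosomes, and 106 of them stood in 10 groups of at least 5 members less than 500000 bases apart. The group at the end of chromosome 4 (chr4:145510759-147848366, GRCm38) held 18 members, all with a KRAB pattern, and is called the chromosome 4 group below. In this group a median of 68.25% of the 50-base stretches of a transcript also occur in other genes. Reads from such stretches can be shared out among copies when RSEM assigns them, so values of single genes in this group are uncertain. Among all members, 48 share over 20% of their stretches with other genes.

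The promoters of the chromosome 4 genes show how closely these copies resemble each other, and 5 of the genes that rose most are printed here with the longest run common to all 5 in capitals. Each window covers 250 bases before and 50 after the RefSeq transcription start in GRCm38.p6, on the strand of the gene.

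Zfp600 (chr4:146156577-146156876, plus strand): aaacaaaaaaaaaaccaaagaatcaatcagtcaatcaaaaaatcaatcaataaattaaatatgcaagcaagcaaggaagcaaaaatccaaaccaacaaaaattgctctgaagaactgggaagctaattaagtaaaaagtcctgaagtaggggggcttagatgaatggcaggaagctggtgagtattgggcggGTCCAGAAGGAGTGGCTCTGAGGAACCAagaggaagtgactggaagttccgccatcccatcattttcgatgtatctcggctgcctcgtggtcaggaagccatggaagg
Zfp980 (chr4:145670447-145670746, plus strand): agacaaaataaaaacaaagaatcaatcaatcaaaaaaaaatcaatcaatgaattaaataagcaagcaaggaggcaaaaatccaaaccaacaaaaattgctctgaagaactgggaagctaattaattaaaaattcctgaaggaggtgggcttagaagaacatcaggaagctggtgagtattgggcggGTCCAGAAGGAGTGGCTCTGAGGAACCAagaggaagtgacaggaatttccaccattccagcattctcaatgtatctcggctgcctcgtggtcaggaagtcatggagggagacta
Zfp987 (chr4:146097062-146097361, plus strand): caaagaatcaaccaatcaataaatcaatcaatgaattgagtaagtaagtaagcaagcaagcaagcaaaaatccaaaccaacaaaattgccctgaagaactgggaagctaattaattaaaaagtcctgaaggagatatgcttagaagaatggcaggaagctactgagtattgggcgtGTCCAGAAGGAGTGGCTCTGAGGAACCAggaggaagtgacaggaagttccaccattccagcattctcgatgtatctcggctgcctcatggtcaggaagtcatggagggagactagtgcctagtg
Zfp988 (chr4:147305354-147305653, plus strand): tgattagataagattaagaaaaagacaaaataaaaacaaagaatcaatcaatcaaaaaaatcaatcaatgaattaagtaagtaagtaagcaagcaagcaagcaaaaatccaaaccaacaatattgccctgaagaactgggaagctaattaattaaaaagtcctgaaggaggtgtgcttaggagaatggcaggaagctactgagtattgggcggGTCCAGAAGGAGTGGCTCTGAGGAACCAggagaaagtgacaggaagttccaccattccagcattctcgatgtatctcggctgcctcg
Zfp534 (chr4:147702582-147702881, minus strand): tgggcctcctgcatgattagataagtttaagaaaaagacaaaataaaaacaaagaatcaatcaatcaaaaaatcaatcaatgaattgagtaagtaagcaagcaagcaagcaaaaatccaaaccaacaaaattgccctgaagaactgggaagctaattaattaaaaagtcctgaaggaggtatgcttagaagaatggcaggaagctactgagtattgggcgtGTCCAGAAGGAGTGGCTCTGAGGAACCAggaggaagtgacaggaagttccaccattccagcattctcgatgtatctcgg

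The capital run of 28 bases occurs in 8 of the 32851 promoter windows of the RefSeq table (0.0244%), counting both strands. Of these windows, 7 belong to members (Zfp534, Zfp600, Zfp980, Zfp982, Zfp985, Zfp987 and Zfp988) and the other to Rex2, a KRAB zinc finger gene with another name. A second pair, Zfp936 and Zfp977 in a group of 8 members on chromosome 7, shares a run of 70 bases that occurs in only those 2 windows (0.00609%).

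Zfp936 (chr7:43177340-43177639, plus strand): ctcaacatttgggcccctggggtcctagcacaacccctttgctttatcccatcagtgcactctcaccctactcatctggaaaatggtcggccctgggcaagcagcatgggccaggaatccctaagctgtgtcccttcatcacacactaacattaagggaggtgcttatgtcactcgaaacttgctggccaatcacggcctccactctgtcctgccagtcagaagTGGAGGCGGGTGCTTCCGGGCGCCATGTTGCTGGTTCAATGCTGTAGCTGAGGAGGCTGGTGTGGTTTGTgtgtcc
Zfp977 (chr7:42592496-42592795, minus strand): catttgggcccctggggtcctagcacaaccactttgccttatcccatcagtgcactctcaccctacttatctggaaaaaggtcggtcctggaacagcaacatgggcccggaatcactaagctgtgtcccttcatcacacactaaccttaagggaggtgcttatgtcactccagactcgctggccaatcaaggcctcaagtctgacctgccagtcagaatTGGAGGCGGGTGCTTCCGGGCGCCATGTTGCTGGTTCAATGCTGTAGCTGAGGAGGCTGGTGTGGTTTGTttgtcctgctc

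Windows were found for 236 members. The member windows had a median of 14 CG pairs against 7 in all windows, and those of the chromosome 4 group had 4.

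Ctcf itself was lower with its shRNA in each of the 11 populations, by 0.52 on the log2 scale at day 0 and by 1.81 in day 12 GFP+ cells (SE 0.09). The summed score of 6 fibroblast markers was 106050 to 116865 at day 0 and 13357 to 13678 in the day 12 control cells, and that of 7 pluripotency markers was 8 to 9 and 36110 to 36534. Score totals over genes ran from 26119844 to 28981763 per library. Differences below are from limma on log2(score + 1), with its moderated SE and a Benjamini-Hochberg adjusted p over all 13451 genes, and genes count as called below an adjusted p of 0.05. The added 1 lowers the difference of low-scoring genes, while a single library at 0 can raise a difference of log2 means. Genes named for the largest stage, day 6 fraction and day 12 shRNA differences were chosen only if their libraries did not overlap. Lack of overlap in those genes was therefore fixed by the choice. In these bulk samples, fewer cells of a type and less RNA per cell cannot be told apart.

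From day 0 fibroblasts to day 12 GFP+ cells with the control shRNA, 130 of the 292 members rose and 93 fell. Over all genes, 40.1% rose and 40.2% fell (80.2% called), so the members' share of higher genes was 44.5% and of lower genes 31.8%. The median difference was 0.20 for the members and -0.01 for all genes. Members admitted by the day 12 or by the day 0 mean alone had to differ in this comparison (11 of 11 higher, and 9 of 10 lower). Among the 271 admitted by the mean over all libraries, 119 rose and 84 fell. That mean includes the day 0 and day 12 control libraries, so the 271 are not free of the rule either. KRAB members rose in 75 and fell in 47 of 162 cases, with a median of 0.30, and members without the pattern rose in 55 and fell in 45 of 129, with a median of 0.12.

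Most of the largest rises sat in the chromosome 4 group, where 17 of 18 members rose and Zfp933 fell (-1.27 ± 0.21 SE, adjusted p = 3.27e-06). The median difference of the 18 was 5.01. Outside this group, 113 members rose and 92 fell, with a median of 0.13. Zfp600, a KRAB gene of a cluster known for silencing endogenous retroviruses, scored 0 and 35 in the day 0 control libraries and 17538 and 17696 at day 12. Its difference was 11.52 ± 1.25, and it was 8.93 without day 0 control replicate 1 and 14.1 without replicate 2. Zfp980 scored 48 and 70 at day 0 and 19054 and 20610 at day 12, a difference of 8.39 ± 0.98. The day 12 libraries stood far above the day 0 libraries for both genes, whose choice required no overlap.

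Zfp981 scored 234 and 241 at day 0 and 19806 and 24656 at day 12 (6.53 ± 0.35, adjusted p = 1.38e-15). Zfp988 scored 143 and 175 at day 0 and 15026 and 12882 at day 12 (6.45 ± 0.34, adjusted p = 1.08e-15). For these 2 genes the day 0 libraries agreed closely, and the difference was many times the SE. Zfp978, Zfp989, Zfp987, Zfp534 and Zfp986 of the same group rose by 9.09, 8.19, 6.75, 6.50 and 5.51. Each had its day 12 libraries above its day 0 libraries, as the choice of these genes required. Zfp990 went from 3774 and 4548 to 79321 and 80222 (4.27 ± 0.28, adjusted p = 8.14e-14). Zfp979, Zfp984 and Zfp982 are also in the group and rose by 2.60, 2.49 and 3.98.

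**Figure D1:**
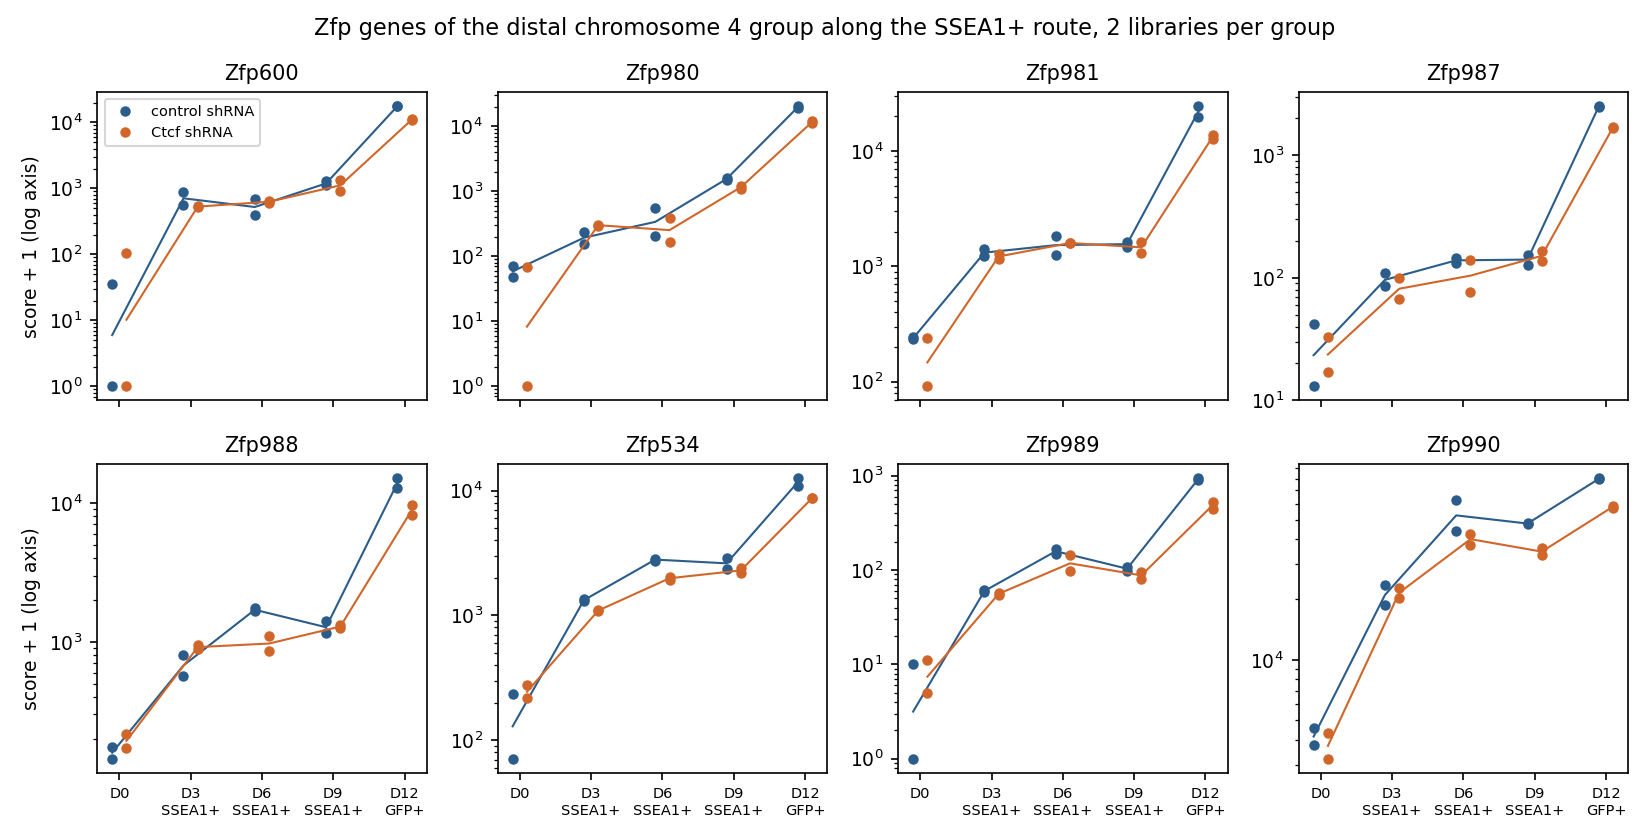
Scores plus 1 on a log axis (vertical) of 8 chromosome 4 genes (Zfp600, Zfp980, Zfp981, Zfp987, Zfp988, Zfp534, Zfp989 and Zfp990) along day 0, SSEA1+ cells of days 3, 6 and 9, and day 12 GFP+ cells (horizontal), for the control and the Ctcf shRNA. Points are libraries (2 per group) and lines join means on the log scale; the steepest part of the control lines of Zfp980, Zfp981, Zfp987 and Zfp988 lies between day 9 and day 12, and in that interval Zfp600 goes from 1109 and 1276 to 17538 and 17696 with the control shRNA, and the Ctcf shRNA points at day 12 sit below the control points.

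Outside chromosome 4 the most extreme rise was that of Zfp936, a KRAB gene of the chromosome 7 group. It scored 0 and 70 at day 0, between 0 and 78 in SSEA1+ cells of days 3 and 6, 496 and 213 on day 9, and 10449 and 9944 in GFP+ cells. The stage difference was 10.24 ± 2.06 (adjusted p = 6.01e-05), and it was 7.17 or 13.3 without either day 0 library. Zfp977, whose promoter is printed beside that of Zfp936, scored 96 and 106 at day 0 and 2038 and 1591 at day 12 (4.14 ± 0.98, adjusted p = 0.000395). In the chromosome 7 group (chr7:42473386-43593235) 6 of 8 members rose, and Zfp715 and Zfp719 fell, by 0.87 and 2.64 on the log2 scale.

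In the largest position group, more members fell than rose. It lies on chromosome 17 (chr17:21008903-23599487) and has 22 KRAB genes among 23 members. Here 15 members fell and 2 rose, Zfp13 and Zfp229, with a median of -0.77. Zfp52 of this group scored 15026 and 15323 at day 0 and 1998 and 1520 at day 12, with every sorted fraction between at 11782 or less (-3.12 ± 0.19, adjusted p = 1.96e-14). Zfp229 went the other way, from 102 and 132 to 1002 and 900 (3.02 ± 0.24, adjusted p = 8.2e-12). In both genes the groups did not overlap, which the choice of Zfp52 required. In day 9 Thy1+ cells, which kept the fibroblast surface marker, 20 of the 23 members of the chromosome 17 group were also below day 0 and none above; over all members 126 were lower and 54 higher (all genes 34.5% and 30.3%, 64.8% called).

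The genes with the largest decreases, beside Zfp52, were spread over several chromosomes. Zfp503 and Zfp703, a pair of related co-repressors, scored 902 and 1021, and 1649 and 1508, at day 0. At day 12 they scored 38 and 72, and 94 and 112. Their differences were -4.17 ± 0.23 and -3.93 ± 0.15 (adjusted p = 3.97e-15 and 7.3e-19), and the groups did not overlap, as the choice of these genes required. Zfp697 fell from 416 and 380 to 8 and 16 (-5.01 ± 0.26, adjusted p = 8.89e-16). Zfp469, whose human counterpart is mutated in brittle cornea syndrome, a connective tissue disorder, fell from 241 and 162 to 22 and 16 (-3.33 ± 0.31, adjusted p = 1.44e-10). Zfp9, Zfp719 of the chromosome 7 group, Zfp189, Zfp637 and Zfp672 fell by 2.84, 2.64, 2.63, 2.34 and 2.33. Zfp469 and Zfp189 are members only through their day 0 mean, so the direction of their difference was fixed by the rule. The fibroblast marker sum given above fell between the same groups, and its part in these differences was not tested.

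In a list of 37 members by known role, 22 rose and 9 fell from day 0 to day 12, beside 40.1% and 40.2% of all genes, and the same shares apply to the shorter lists that follow. In the list of KRAB genes with known silencing roles, 6 of 8 rose and none fell. Zfp57, which protects methylation at imprinted loci, scored 444 and 486 at day 0 and 3035 and 2909 at day 12. Its scores in all sorted fractions of days 3 to 9 with the control shRNA lay between 374 and 768, below both day 12 libraries (2.67 ± 0.09, adjusted p = 1.85e-20). Zfp568, which represses a placental promoter of Igf2, rose more gradually along the SSEA1+ cells, from 823 and 868 to 1174 and 1179, 1378 and 1322, 1256 and 1203, and 2642 and 2406 (1.58 ± 0.11). Zfp961 rose by 2.24, Zfp809, which silences murine leukaemia virus in embryonic cells, by 0.74, and Zfp445, a partner of Zfp57 in imprint protection, by 0.72. Zfp932 and Zfp708 did not pass the test (0.46 and 0.53, adjusted p = 0.0766 and 0.0791).

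In the list of transcription factors linked to pluripotency or general transcription, 7 of 10 rose and 2 fell. Zfp462, which restrains differentiation genes in embryonic stem cells, rose by 1.71, and Zfp217 by 1.55 (SE 0.12 and 0.11). Zfp281, a Nanog-binding regulator of pluripotency, scored 860 and 864 at day 0 and 2501 and 2384 at day 12 (adjusted p = 1.4e-11). Zfp219 rose by 1.26, Zfp706 by 0.99, Zfp207, a spindle assembly factor, by 0.72 and Zfp143, a promoter factor found at loop anchors, by 0.36. That call was lost without day 0 control replicate 2 or day 12 control replicate 2 (adjusted p = 0.255 and 0.239), and when only the groups compared were fitted (0.0604). Zfp131 and Zfp148 fell by 0.28 and 0.36. Zfp711, which brings the histone demethylase PHF8 to promoters, did not pass the test between these ends (0.10, adjusted p = 0.748) and had its highest scores in between. It scored 618 and 430 at day 0, then 11512 and 12357 in SSEA1+ cells of day 3. Scores of 4287 and 5692 followed on day 6, 1944 and 2224 on day 9, and 396 and 773 in the GFP+ cells.

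Lineage genes of the mesenchyme, fat and epidermis split into 5 higher and 3 lower of 8. Among the higher ones, Zfp423 and Zfp185 are members only through their day 12 mean, so the direction of their difference was fixed by the rule. Zfp423, a regulator of fat cell precursors, scored 24 and 20 at day 0, 70 and 80 in day 9 SSEA1+ cells and 422 and 448 at day 12 (4.25 ± 0.25, adjusted p = 1.29e-14). Its paralog Zfp521 differed by 0.29 ± 0.11 and lost its call without day 0 control replicate 1 or day 12 control replicate 1 (adjusted p = 0.0654 and 0.0807). Zfp750, a driver of epidermal differentiation, scored 26 and 29 at day 0, 546 and 581 in day 6 SSEA1+ cells and 207 and 270 at day 12 (3.06 ± 0.19). Zfp185, a LIM domain protein of the actin skeleton, rose by 2.72, Zfp516, a regulator of brown fat, by 1.52, and Zfp608 fell by 1.02. Zfp467 is in the table but below the limit for members.

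Of 7 RNA and ribosome genes, 4 rose and 2 fell: Zfp598, a ubiquitin ligase that senses collided ribosomes, rose by 1.57, Zfp106 by 1.29, Zfp638 by 1.17 and Zfp36 by 0.57, while Zfp326 and Zfp346 fell by 0.37 and 0.29. Zfp622, a factor of large ribosomal subunit maturation, did not pass the test (-0.17, adjusted p = 0.129). Zfp36, known as tristetraprolin, destabilizes inflammatory messenger RNAs and had a dip and a later rise along the SSEA1+ cells. It scored 873 and 791 at day 0, 96 and 126 on day 3, and 184 and 207 on day 6. It then scored 1729 and 2022 on day 9 and 1172 and 1298 in GFP+ cells. Day 9 Thy1+ cells scored 6308 and 7056. Among 4 genes of chromosome maintenance and repair none rose, Zfp365 and Zfp668 fell by 0.25 and 0.30, and Zfp335 and Zfp830 did not pass the test (-0.15 and 0.19). Some of these small differences lost their call without a single library. Zfp346 was at -0.16 (adjusted p = 0.167) without day 0 control replicate 2, and Zfp365 at -0.20 (adjusted p = 0.0983) without day 0 control replicate 1. Zfp668 was at -0.19 (adjusted p = 0.235) without day 12 control replicate 2, and its call was also lost without day 0 control replicate 1 or 2 (adjusted p = 0.0853 and 0.0622). When only the groups compared were fitted, Zfp346 and Zfp668 were not called (adjusted p = 0.0722 and 0.0671).

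Along the SSEA1+ route the members did not move evenly. At the step from day 0 to day 3 SSEA1+ cells, 142 members rose and 44 fell (39.7% and 32.5% of all genes, 72.2% called), with a median of 0.37 against 0.09. Zfp600 rose most (6.88 ± 1.25, and 4.30 without day 0 control replicate 1), and Zfp469 fell most, from 241 and 162 to 4 and 12 (-4.62 ± 0.31). From day 3 to day 6, 75 rose and 25 fell (all genes 23.8% and 25%, 48.8% called). Zfp473 rose from 46 and 48 to 176 and 161 (1.82 ± 0.24), and Zfp503 fell from 158 and 164 to 31 and 26 (-2.46 ± 0.23). The libraries did not overlap in either gene. Fewer members rose at this step without day 3 control SSEA1+ replicate 1, and the share of all genes in that fit is not given here.

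The next step went the other way. From day 6 to day 9 SSEA1+ cells, 150 members fell and 14 rose, that is 51.4% lower and 4.79% higher, while 27% of all genes fell and 22.5% rose (49.5% called). The members' median was -0.38 and that of all genes -0.07. Between these groups the fibroblast marker sum went from 6481 to 6562 on day 6 to 35115 to 36177 on day 9. The pluripotency sum went from 2920 to 3129 to 4744 to 4943. The part of these shifts in the members' differences was not tested. Among KRAB members 88 of 162 fell, with a median of -0.56, and the single KRAB gene that rose was Zfp936 (5.20 ± 2.06), whose call was lost without day 6 control SSEA1+ replicate 2 (2.05) or either day 9 control library (4.59 and 5.81). Members without the pattern fell in 62 and rose in 12 of 129, with a median of -0.29. Zfp273, a KRAB gene on chromosome 13, fell most, from 200 and 256 to 68 and 42 (-2.06 ± 0.45, adjusted p = 0.000502). In the chromosome 4 group Zfp933 and Zfp984 were lower at this step, none was higher, and the median was -0.14; the difference between these groups of genes was not tested. Related zinc finger families, taken with the same level limit, also had more lower than higher genes: 13 lower and 3 higher of 30 Zbtb genes, and 9 lower and 0 higher of 18 Zscan, Zkscan and Zik genes.

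At the last step, from day 9 SSEA1+ to day 12 GFP+ cells, 102 members rose and 56 fell (all genes 25.5% and 33.6%, 59.1% called), with a median of 0.19 against -0.06. The chromosome 4 group rose in 15 of 18 members with a median of 2.35, and 7 of the 8 chromosome 7 genes rose. Zfp936 rose by 4.97 ± 2.06, a call lost without any 1 of its 4 libraries, and Zfp697 fell from 52 and 60 to 8 and 16 (-2.20 ± 0.26). When each member was placed at its highest mean along the control route, 59 peaked in day 0 cells, 50 on day 3, 100 on day 6, 2 on day 9 and 81 in the GFP+ cells. For all genes the shares were 32.3%, 18.9%, 18.2%, 6.51% and 24.1%. With the Ctcf shRNA the members' numbers were 71, 83, 64, 13 and 61.

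**Figure D2:**
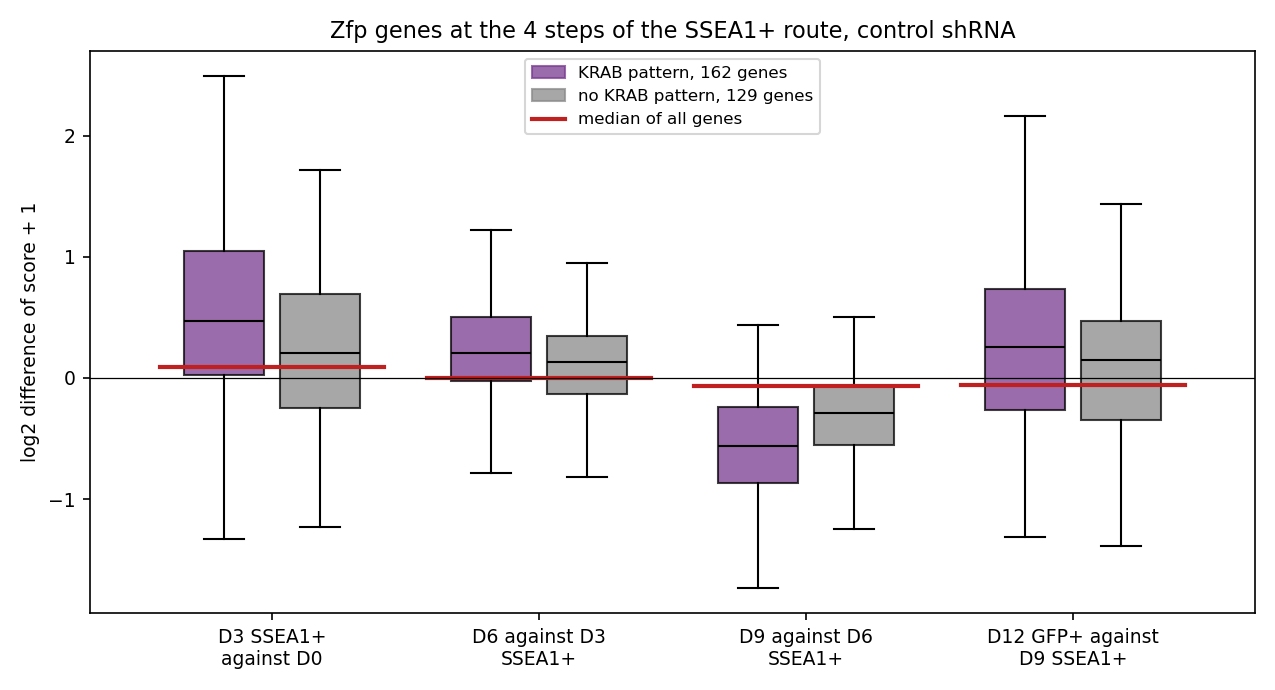
Log2 differences (vertical) of members with a KRAB pattern (162) and without (129) at each of 4 steps along the control route (horizontal): day 0 to day 3 SSEA1+, day 3 to day 6, day 6 to day 9, and day 9 SSEA1+ to day 12 GFP+. Boxes span the quartiles with the median as a line, points beyond the whiskers are not drawn, and red lines give the median of all 13451 genes; at the step from day 6 to day 9 both medians lie below it, at -0.56 and -0.29 against -0.07.

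Sorted fractions of the same day separated the members as well. SSEA1+ cells against Thy1+ cells with the control shRNA had 113 members higher and 23 lower at day 3 (all genes 35.4% and 28.8%, 64.2% called), 165 and 30 at day 6 (42.4% and 33.8%, 76.2% called), and 142 and 28 at day 9 (38.8% and 30%, 68.8% called). The medians were 0.30, 0.54 and 0.36 for the members and 0.09, 0.15 and 0.13 for all genes. At day 6, 93 of 162 KRAB members were higher and 10 lower. The fibroblast marker sum of day 6 was 6481 to 6562 in SSEA1+ and 184680 to 198783 in Thy1+ control cells, and its part in these differences was not tested.

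Several genes were far higher in SSEA1+ cells at day 6. Zfp473 scored 176 and 161 there and 16 and 18 in Thy1+ cells (3.24 ± 0.24, adjusted p = 1.77e-12), with 1.16 at day 3 and 1.53 at day 9. Zfp750 scored 546 and 581 against 85 and 96 (2.63 ± 0.19), with 1.64 at day 3 and 1.59 at day 9. Zfp459, a KRAB gene of chromosome 13, scored 44 and 54 against 3 and 2, a difference of 3.84 ± 0.37 that became 2.44 with a pseudocount of 8. The SSEA1+ libraries were above the Thy1+ libraries in each of these genes, as their choice required. Zfp345 had the largest difference, with 432 and 496 against 26 and 0 (6.48 ± 1.23), but it was 4.10 without day 6 control Thy1+ replicate 2, the library at 0. Of the chromosome 4 group, Zfp989, Zfp986, Zfp534 and Zfp988 were higher by 3.08, 2.98, 2.80 and 2.67. At day 3 these differences were 1.08, 1.41, 1.88 and 0.25, of which only that of Zfp534 passed the test, and at day 9 they were 1.96, 2.38, 2.27 and 1.89. The day 9 calls of Zfp345, Zfp986 and Zfp989 were lost without single day 9 libraries (adjusted p up to 0.185, 0.0751 and 0.104).

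On the other side, Zfp503 scored 31 and 26 in day 6 SSEA1+ cells and 1074 and 979 in Thy1+ cells (-5.13 ± 0.23, adjusted p = 5.8e-17), with -2.02 at day 3 and -2.29 at day 9. Zfp703 had -3.39 at day 6, and -1.89 and -1.84 at days 3 and 9. Zfp36 scored 184 and 207 against 1649 and 1539 (-3.02 ± 0.12). The groups did not overlap in these genes, as their choice required. Zfp618, Zfp9, Zfp469, Zfp395 and Zfp697 were lower at day 6 by 3.13, 2.11, 2.03, 1.95 and 1.72 on the log2 scale. Double-negative cells usually lay between both neighbours: at days 6 and 9 the mean of 77.7% and 70.2% of members lay between, as did 77.6% and 76.0% of all genes. At day 3 only 54.1% of members did, against 74.2% of all genes. There 110 of 292 members had their lowest mean in the double-negative cells, beside 2116 of all 13451 genes.

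With the Ctcf shRNA more members, and also more of all genes, were called at day 6 and day 12 than at days 0 and 3. At day 0, 19 members were higher and 6 lower with the Ctcf shRNA (2.93% and 3.75% of all genes, 6.68% called). These counts depended on single libraries. More members were called without the day 0 Ctcf shRNA replicate 1, and fewer without its replicate 2 or control replicate 1. The shares of all genes in those fits are not given here. The summed score of 6 macrophage markers at day 0 was 6585 to 7956 with the control and 9689 to 11977 with the Ctcf shRNA, and its part in these counts was not tested. At day 3 the counts of higher and lower members were 4 and 2 in Thy1+ cells (all genes 1.46% and 2.56%, 4.02% called), 2 and 1 in SSEA1+ cells (3.56% and 3.22%, 6.78% called) and 4 and 2 in double-negative cells (2.34% and 2.54%, 4.88% called). Fewer members were called at day 3 when 1 library at a time was left out, and the shares of all genes in those fits are not given here. Zfp777, from a group of 5 members on chromosome 6, was the lower gene in SSEA1+ cells and among the lower genes in the other fractions (-0.45, -0.33 and -0.37).

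At day 6 more members were lower than higher in each fraction. There were 8 higher and 23 lower members in Thy1+ cells (6.83% and 7.56% of all genes, 14.4% called), 3 and 42 in SSEA1+ cells (11.2% and 11%, 22.2% called) and 7 and 90 in double-negative cells (20.2% and 21.9%, 42.1% called). The double-negative median was -0.31 for members and -0.04 for all genes, and 56 of 162 KRAB members were lower against 1 higher. The fibroblast marker sum in double-negative cells was 43731 to 47411 with the control and 92262 to 93164 with the Ctcf shRNA, and its part in the members' counts was not tested. Zfp930 scored 2100 and 2682 with the control and 928 and 797 with the Ctcf shRNA there (-1.46 ± 0.18, adjusted p = 5.15e-07). Zfp217 scored 958 and 991 against 522 and 542 (-0.87 ± 0.11). Neither gene's groups overlapped. Without control double-negative replicate 2 fewer members were called, most of them lower, and the share of all genes in that fit is not given here. In SSEA1+ cells fewer members were called without Ctcf shRNA replicate 2 or control replicate 2. In Thy1+ cells fewer were called without control replicate 1 or either Ctcf shRNA replicate. The shares of all genes in those fits are also not given here.

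At day 9 the counts were 12 higher and 23 lower in Thy1+ cells (7.51% and 12.1% of all genes, 19.6% called), 10 and 11 in SSEA1+ cells (4.8% and 9.04%, 13.8% called) and 22 and 19 in double-negative cells (14.6% and 13.4%, 28% called). The fibroblast marker sum in SSEA1+ cells was 35115 to 36177 with the control and 17040 to 18495 with the Ctcf shRNA. In double-negative cells it was 88706 to 91107 and 117404 to 118107, and in Thy1+ cells 232371 to 245367 and 243998 to 269080. Its part in the members' counts was not tested. The totals of called members fell most without control Thy1+ replicate 2, control SSEA1+ replicate 1 and Ctcf shRNA double-negative replicate 2. The shares of all genes in those fits are not given here. In day 12 GFP+ cells, 98 members were lower and 17 higher, while 24.7% of all genes were lower and 24.6% higher (49.2% called). The members' shares were 33.6% lower and 5.82% higher, and their median was -0.28 against -0.07. Members admitted by the day 12 mean alone were chosen on the control arm of this comparison (9 of 11 lower). Among the 271 admitted by the mean over all libraries, 86 were lower and 16 higher. That mean includes the day 12 control libraries, so the 271 are not free of this choice. Fewer members were lower at day 12 without Ctcf shRNA replicate 2 or control replicate 1, and the share of all genes in those fits is not given here.

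**Figure D3:**
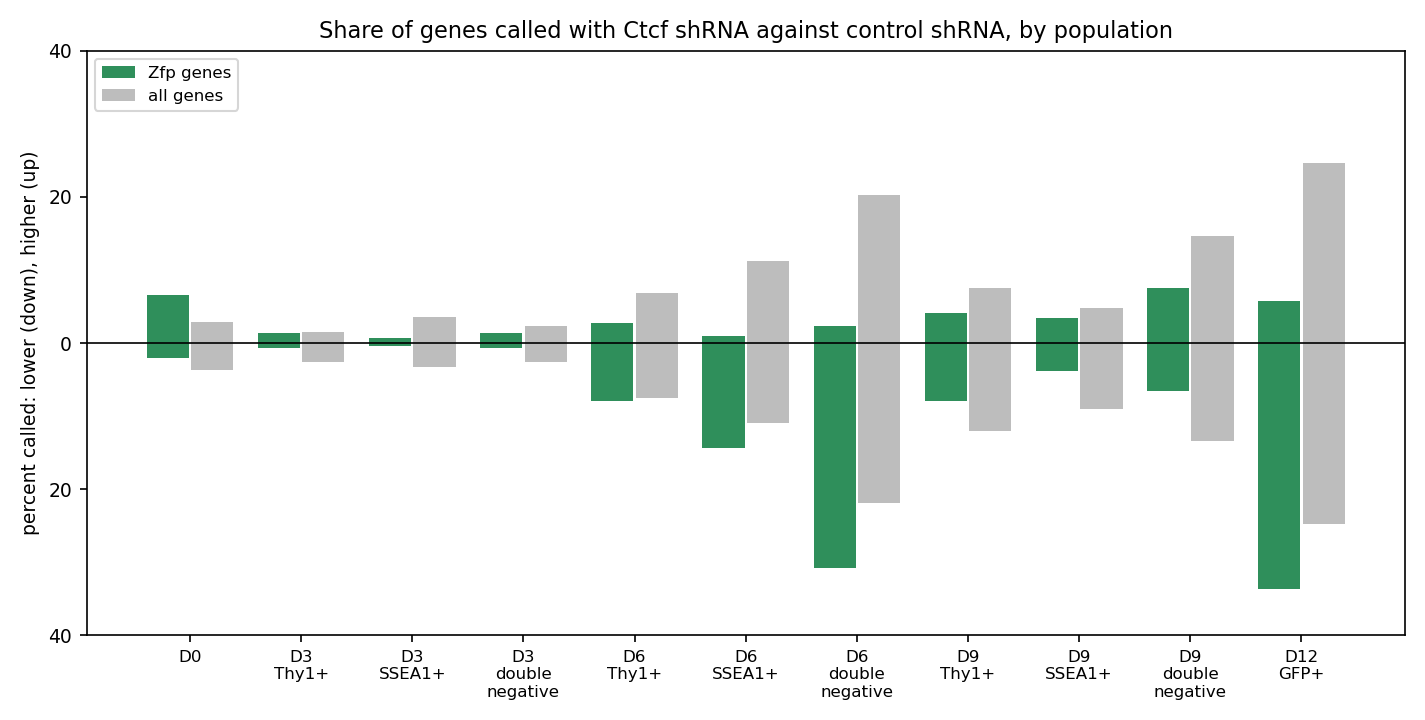
Percent of Zfp members (292) and of all genes (13451) called higher (bars up) or lower (bars down) with the Ctcf shRNA than with the control shRNA, in each of 11 populations. Bars of the members reach 30.8% lower in day 6 double-negative cells and 33.6% lower in day 12 GFP+ cells, beside 21.9% and 24.7% of all genes.

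At day 12 the KRAB members were lower in 54 and higher in 4 of 162 cases (median -0.39), and members without the pattern lower in 44 and higher in 12 of 129 (median -0.18). The 4 higher KRAB genes were Zfp9, Zfp52, Zfp334 and Zfp316. Chromosome 13 members were lower in 7 of 14 cases, namely Zfp273, Zfp459, Zfp759, Zfp953, Zfp85, Zfp493 and Zfp748, and none was higher. In the chromosome 4 group the median was -0.59, yet only Zfp984 passed the test (-0.64 ± 0.18, adjusted p = 0.00455). Zfp600 scored 17538 and 17696 with the control and 11237 and 10683 with the Ctcf shRNA, and the groups did not overlap (-0.69 ± 1.25, adjusted p = 0.67). Zfp980 scored 19054 and 20610 against 12304 and 11158 (-0.76 ± 0.98, adjusted p = 0.537). The libraries of both genes separate by shRNA, while their SE, estimated over all populations, is larger than the difference.

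The genes lowered most at day 12 were of several kinds. Zfp229 scored 1002 and 900 with the control and 415 and 407 with the Ctcf shRNA (-1.21 ± 0.24, adjusted p = 0.000205). Zfp423, the regulator of fat cell precursors, scored 422 and 448 against 178 and 198 (-1.21 ± 0.25, adjusted p = 0.000303). Zfp459 scored 570 and 528 against 201 and 214 (-1.40 ± 0.37, adjusted p = 0.00314). In all 3 genes the Ctcf shRNA libraries were below the control libraries, as their choice required, and stayed above the day 0 level. Zfp423 and Zfp459 are members only through the day 12 control mean of this comparison. Zfp54 and Zfp472 were lower by 1.17 and 1.16. Zfp273 had the largest decrease (-1.44 ± 0.45, adjusted p = 0.0106), but its call was lost without Ctcf shRNA replicate 2 or control replicate 1 (adjusted p = 0.0571 and 0.0556). In the role list, 11 were lower and 5 higher of 37, among the lower Zfp57 (3035 and 2909 against 1986 and 1998), Zfp281 (2501 and 2384 against 1775 and 1737) and Zfp830 (292 and 266 against 181 and 164).

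The genes raised most at day 12 included several with high scores at day 0. Zfp703 scored 94 and 112 with the control and 278 and 276 with the Ctcf shRNA (1.42 ± 0.15, adjusted p = 1.13e-08). Zfp503 scored 38 and 72 against 144 and 140 (1.42 ± 0.23, adjusted p = 1.65e-05). Zfp697 scored 8 and 16 against 34 and 38 (1.58 ± 0.26, adjusted p = 1.9e-05). The choice of these genes required groups that do not overlap. Their Ctcf shRNA libraries of day 12 were below those of day 0. The day 12 control libraries are also those of the comparison with day 0. Zfp469, Zfp9 and Zfp618 were higher by 1.76, 1.68 and 1.25. In the same cells the fibroblast marker sum was 13357 to 13678 with the control and 42569 to 43451 with the Ctcf shRNA, the sum of 3 smooth muscle markers 2123 to 2234 and 8271 to 8301, and the pluripotency sum 36110 to 36534 and 20635 to 20688. The sum of 3 epithelial markers was 12470 to 12676 and 17764 to 17902, and that of 6 macrophage markers 640 to 757 and 618 to 703. Among the epithelial markers, the means of Krt8 were 2779.5 and 8493.0 and those of Cdh1 6263.0 and 6735.0. Epcam went the other way, with means of 3530.5 and 2605.0. None of the fibroblast or pluripotency markers was listed at 0 there. The part of these shifts in the members' differences was not tested.

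**Figure D4:**
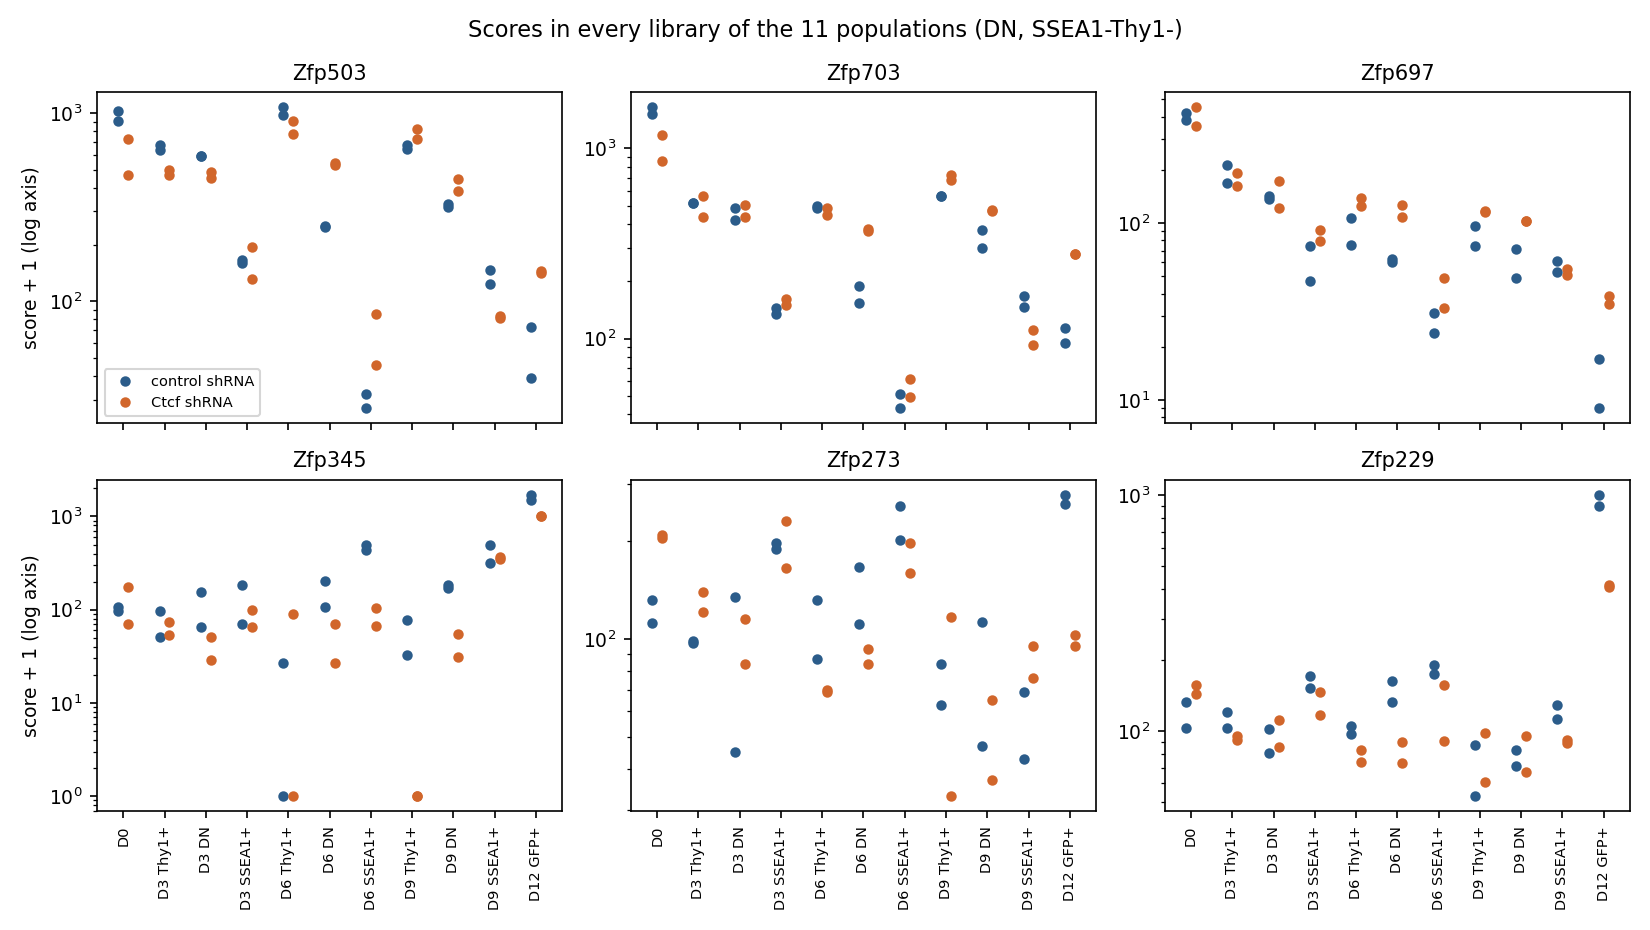
Scores plus 1 on log axes (vertical, each panel with its own range) of Zfp503, Zfp703, Zfp697, Zfp345, Zfp273 and Zfp229 in every library of the 11 populations (horizontal), control and Ctcf shRNA side by side. Points are libraries (2 per group); Zfp703 with the Ctcf shRNA sits below the control at day 0 (1178 and 862 against 1649 and 1508) and above it at day 12 (278 and 276 against 94 and 112).

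Averaged over the 11 populations, 88 members were lower and 24 higher with the Ctcf shRNA (25.8% and 26.2% of all genes, 52% called), with a median of -0.05. Of the chromosome 4 group 11 of 18 were lower and none higher (median -0.34), and of the chromosome 7 group 6 of 8 were lower. Zfp777 was lower by 0.46 ± 0.03 (adjusted p = 5.2e-13), in 10 of 11 populations, for instance at 431 and 490 against 296 and 265 at day 12. Zfp704 was lower in 11 of 11 populations (-0.45 ± 0.04, adjusted p = 1.89e-10), at 1848 and 1740 against 1134 and 1164 in day 6 Thy1+ cells. Zfp930 was lower in 10 of 11 (-0.50 ± 0.06), and Zfp990 in 9 of 11 (-0.49 ± 0.08), for instance at 79321 and 80222 against 58655 and 57362 at day 12. These mean decreases were small, though Zfp930 and Zfp990 reached -1.46 and -1.22 in single populations. Genes with large mean effects, here and below, were named only if at least 9 of 11 populations went in 1 direction. Their agreement across populations was therefore fixed by this choice.

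Zfp977, Zfp345, Zfp980 and Zfp989 had larger mean decreases (1.21, 1.26, 0.75 and 0.59 on the log2 scale) with larger SE (0.30, 0.37, 0.30 and 0.22). Their effects in single populations ran from -6.52 to 0.54, -5.66 to 0.86, -2.83 to 0.64 and -3.14 to 1.23. Zfp980 was called in no single population. Zfp980 moved to -0.47 without day 0 Ctcf shRNA replicate 2, where it was still called, and it lost its call without any of 13 other single libraries (adjusted p up to 0.0633), for instance day 3 Ctcf shRNA Thy1+ replicate 1 (-0.67). In the upward direction, Zfp711 was higher in 10 of 11 populations (0.60 ± 0.09, adjusted p = 1.63e-06), at 4287 and 5692 against 9413 and 9168 in day 6 SSEA1+ cells. Zfp697 was higher in 9 of 11 (0.48 ± 0.08), Zfp949 in 10 (0.30 ± 0.04) and Zfp809 in 11 (0.18 ± 0.03). Zfp469, Zfp41, Zfp799 and Zfp346 were higher by 0.27, 0.19, 0.13 and 0.11, and Zfp799 lost its call without several single libraries (adjusted p up to 0.0706). Whether the Ctcf shRNA effect differed among the 11 populations was tested by an F test in limma, and 133 of 292 members passed (56% of all genes).

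The effect at day 12 minus that at day 0 was below 0 in 81 members and above 0 in 15 (18% and 21.2% of all genes, 39.2% called), with a median of -0.32 against -0.06. In the chromosome 13 group 9 of 14 members passed, all below 0, with a median of -1.09. Zfp658 scored 72 and 84 at day 0 with the control and 159 and 158 with the Ctcf shRNA, and 89 and 129 against 54 and 74 at day 12. It was therefore higher with the shRNA at day 0 (1.02 ± 0.20, adjusted p = 0.00255) and lower at day 12 (-0.75 ± 0.20, adjusted p = 0.00264), though it is a member only through its day 12 control mean. The day 12 cells also differed from the day 0 cells in how far Ctcf itself was lowered (1.30 more on the log2 scale), and the part of this was not tested.

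The partners of KRAB proteins were followed as a list of 20 genes of the TRIM28 and SETDB1 silencing machinery. From day 0 to day 12, 17 rose and 2 fell (median 1.21), beside 40.1% and 40.2% of all genes. Trim28 rose by 2.50, Setdb1 by 1.42 and Uhrf1, which guides maintenance methylation, by 2.55. The genes that fell were Chd3 and Pphln1. With the Ctcf shRNA averaged over populations, 14 were lower and none higher (median -0.11), beside 25.8% and 26.2% of all genes: Setdb1 by 0.37 (adjusted p = 2.23e-13), Uhrf1 by 0.33, Hdac1 by 0.28 and Trim28 by 0.10. At day 12, 12 were lower and 2 higher, beside 24.7% and 24.6% of all genes.

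At day 10, no member was called in either comparison by limma. Of 278 members measured, 7 had an unadjusted p below 0.05 for oeCTCF against oecontrol and 4 for oeCTCF&shSmarca5 against oeCTCF. Over 12935 genes, 8 (0.0618%) and 10 (0.0773%) were called, and 786 and 185 had an unadjusted p below 0.05. The 2 oecontrol columns differed by about as little as counting noise (1.31 in units of the counting spread, against 5.74 and 5.13 in the other groups) and were counted as 1 sample, which leaves 2 residual degrees of freedom. Zfp980 scored 510 and 505 in the controls, 752 and 694 with oeCTCF and 663 and 631 with oeCTCF&shSmarca5. Zfp988 scored 511 and 592, 799 and 700, and 636 and 721.

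The authors' deposited table for CTCF overexpression at day 10 gave a p below 0.05 to 4 members: Zfp980, Zfp988 and Zfp521 went the way of Ctcf (log2 ratios of 1.34, 1.56 and 0.74 beside 2.32 for Ctcf), and Zfp738 went against it (-0.65). Of all genes in it, 1.39% went the way of Ctcf and 2.49% against it. In the authors' deposited table for the Ctcf shRNA in day 10 cells, Ctcf had means of 2197 and 1730 (-0.34). There, 51 members passed the authors' p of 0.05, of which 41 went the way of Ctcf and 10 against it (10.8% and 11.4% of all genes). All 10 chromosome 4 members that passed in the authors' deposited table went the way of Ctcf, among them Zfp990 with 3013 and 2145 and Zfp988 with 210.2 and 102.3. The table does not name its conditions, so each direction is given relative to that of Ctcf.

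In the MEF and iPSC libraries, with 1 of each and no test, 254 members had read counts, scaled to library totals (CPM) of 16593659 and 9912018 reads. At least 8-fold higher in iPSCs were 17 members (8.96% of all genes), of which 14 carry a KRAB pattern, and at least 8-fold higher in MEFs were 8 (8.02%), of which 1 does. Zfp534 of the chromosome 4 group had 0 reads in MEFs and 1168 in iPSCs, at least 652-fold higher when 3 reads are taken as the floor in MEFs. Zfp229 had 106 and 2213 reads, that is 6.39 CPM in MEFs (95% exact binomial interval 5.23 to 7.73, counting error only) and 223 in iPSCs (214 to 233). Zfp503 had 1266 and 49 reads, or 76.3 (72.1 to 80.6) and 4.94 (3.66 to 6.54) CPM. Zfp697 had 200 and 3 reads. Zfp521 had 1068 and 19 reads, or 64.4 (60.6 to 68.3) and 1.92 (1.15 to 2.99). This direction is opposite to its small rise from day 0 to day 12 in the sorted cells. Zfp36, at 129 and 40.7 CPM, also went against its rise there. This table is not scaled like that of the sorted cells, and levels are not compared between them.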

How the data were processed

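RNA was sequenced from 56 samples, and the submitters' processing notes name Trim Galore, FastQC and RSEM without versions. They name GRCm38/mm10 for 54 samples and mm9 for the MEF and iPSC libraries. The deposited tables of sorted and of day 10 cells hold a tag score per gene, which the authors normalized and rounded, so that it is not a count. For MEFs and iPSCs the deposited values are whole-number counts without scaling. The authors' tables of day 10 comparisons hold a mean score per condition (never below 0.5, scaling not given in the sources used here), its log2 ratio and a p-value as the authors deposited them, without naming the test. The 4 day 10 shRNA samples enter only through such a table.

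Scores were tested with limma 3.58.1 in R 4.3.3 on log2(score + 1), fitting all 44 libraries with a coefficient for each group and an intensity trend of the variance (22 residual degrees of freedom). Genes needed a score of 10 in 2 libraries, which all 13451 met. P-values were adjusted over all genes by Benjamini-Hochberg. The pipeline was tested on simulated data with known changes. The 819 rows that are not Ensembl genes were left out. Differences cover the libraries measured, with 2 per group. KRAB patterns, fingers and shared 50-base stretches were computed from GENCODE M21 transcripts, and promoters are RefSeq windows. Score totals, 26119844 to 28981763 per library, are set by the normalization, so read depth is unknown for these libraries.

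Members, lists and tests were chosen with earlier results of these data known. Genes named with values are those of the role list, the 10 largest stage differences per direction, the 8 largest between SSEA1+ and Thy1+ cells at day 6, the 8 largest mean and 6 largest day 12 Ctcf shRNA effects, the largest at each step and the 5 largest per direction for day 12 against day 0. Stage, fraction and shRNA genes also needed libraries that do not overlap, and mean effects 9 of 11 populations in 1 direction. Zfp217, Zfp830, Zfp281 and Zfp57 in single shRNA comparisons, the remaining chromosome 4 genes, and the genes of position groups were chosen after their values were seen. Replicate numbers shared by groups did not pair the samples (correlation of deviations -0.103 to 0.131 over all pairs of groups). Alternatives were a pseudocount of 8, no filter, a minimum score of 100, quantile normalization, the replicate block, only the groups compared, and each library left out. Those that leave out the chromosome 4 group or genes sharing over 20% of their stretches were chosen after seeing the data.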

Additional observations from a re-analysis of the deposited data

Results flagged for a closer look

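For 10 members the Ctcf shRNA effect at day 12 differed from that at day 0, by limma's test of the difference itself with Benjamini-Hochberg adjustment over all genes; these are the 5 largest differences per direction. Zfp503 and Zfp703, related co-repressors, had differences of 2.15 ± 0.33 (SE, adjusted p = 1.1e-05) and 2.07 ± 0.21 (adjusted p = 1.7e-08). For Zfp503 the Ctcf shRNA libraries scored 722 and 467 against 902 and 1021 at day 0 and 144 and 140 against 38 and 72 at day 12. Zfp9 had 2.10 ± 0.20 (adjusted p = 5.15e-09), Zfp697 had 1.57 ± 0.37 (adjusted p = 0.00154) and Zfp608 had 1.55 ± 0.23 (adjusted p = 5.43e-06). Zfp608 scored 246 and 184 against 330 and 299 at day 0 and 314 and 302 against 136 and 176 at day 12.

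In the other direction stood KRAB genes of chromosomes 13, 7 and 17. Zfp273 had -2.20 ± 0.64 (adjusted p = 0.00793), with 204 and 208 against 111 and 131 at day 0 and 102 and 94 against 276 and 258 at day 12. Zfp759 had -2.07 ± 0.51 (adjusted p = 0.00224), with 198 and 184 against 90 and 90 at day 0 and 108 and 86 against 178 and 210 at day 12. Zfp712 had -1.97 ± 0.54 (adjusted p = 0.00525). Its libraries scored 704 and 496 against 190 and 366 at day 0, and at day 12 296 and 496 against 773 and 586. Zfp658 had -1.77 ± 0.28 (adjusted p = 1.46e-05) and Zfp54 -1.64 ± 0.36 (adjusted p = 0.000661). Zfp273, Zfp759, Zfp712, Zfp658 and Zfp54 each had both Ctcf shRNA libraries above both control libraries at day 0 and below them at day 12. Of these, only Zfp658 was called higher at day 0. Zfp712 was called in neither direction in any single population, and the day 12 call of Zfp273 depended on single libraries.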

How the results depend on the processing

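The numbers of called members in the 25 comparisons fitted stayed within 1.5 times under a pseudocount of 8, no filter, a minimum score of 100 and quantile normalization, which moved the median of all genes by at most 0.054. With the replicate block the Ctcf shRNA count in day 3 SSEA1+ cells went from 3 to 5, and no other count left that range; replicate numbers are names only here. With the day 10 control columns kept as 2 samples, 1 member was called for oeCTCF, a lower one. With 1 library left out at a time, and the lone sample of its group assumed to vary like the others, the calls ranged as follows. From day 0 to day 12 they were 200 to 207 of 223, at the 4 steps in order 153 to 171, 65 to 77, 114 to 141 and 134 to 138, and for day 9 Thy1+ against day 0 cells 149 to 157. SSEA1+ against Thy1+ gave 102 to 116 at day 3, 169 to 189 at day 6 and 127 to 143 at day 9. The Ctcf shRNA gave 8 to 45 at day 0, 1 to 4, 1 to 2 and 0 to 3 in day 3 Thy1+, SSEA1+ and double-negative cells, 15 to 21, 16 to 34 and 63 to 82 at day 6, 18 to 41, 9 to 16 and 19 to 28 at day 9, and 74 to 82 at day 12. The mean effect gave 103 to 117, the difference between day 12 and day 0 gave 68 to 92, the F test 112 to 147, and both day 10 comparisons 0 to 1. The cause of these shifts was not tested. The shares of all genes called in these fits are not given here, so the members' counts cannot be set beside them. No called result for any named gene reversed its direction. Some results that were not called changed sign without a single library. Examples are Zfp711 from day 0 to day 12 (-0.38 to 0.58) and the mean Ctcf shRNA effect of Zfp600 (-0.56 to 0.05). Of 182 results for 74 named genes, 16 lost their call without some single library. With 2 libraries per group and an unknown read depth, scores under about 100 carry the least weight, and values of near-identical chromosome 4 copies depend on how reads were assigned among them.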
